A study of Caenorhabditis elegans with 15 samples.

Results

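The lbp genes of Caenorhabditis elegans, lbp-1 to lbp-9, encode the nematode's lipid-binding proteins of the fatty acid-binding protein family. The members were taken by gene name and numbered 9 of the 20541 genes in the count table. All 9 passed the filter on low counts and were tested. RNA was sequenced from whole larvae of the wild-type strain N2, with 5 libraries for each of 3 groups. UA larvae received 50 µM ursolic acid (UA), a plant triterpenoid, for 12 h. DMSO larvae received the solvent alone, and untreated larvae received neither. In every group the larvae had fed for 34 h before the 12 h period and were L4 animals at harvest. Replicates are numbered by batch, and every group has 1 library in each of the 5 batches.

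Fatty acid-binding proteins are small cytosolic or secreted carriers that fold into a barrel of beta strands and hold a fatty acid or a similar hydrophobic ligand inside. They move lipids that would otherwise be poorly soluble between membranes, enzymes and, in some cases, nuclear receptors. In C. elegans, LBP-1, LBP-2 and LBP-3 carry a secretion signal. LBP-3 leaves the intestine as a carrier of polyunsaturated fatty acids towards neurons when the lysosomal lipase LIPL-4 is raised. LBP-8 carries lipid from the lysosome to the nucleus, where the nuclear hormone receptors NHR-49 and NHR-80 respond, and LBP-5 takes part in fat storage and energy metabolism. In whole animals, fewer cells of a type and less RNA per cell cannot be told apart.

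Several of the genes are neighbours in the WBcel235 genome. The 3 genes for the secreted proteins lie in tandem on the plus strand of chromosome X, with lbp-3 (WBGene00002255) at X:3257372-3258155, lbp-1 (WBGene00002253) at X:3259142-3259812 and lbp-2 (WBGene00002254) at X:3260610-3261470. The gaps between them are 986 and 797 bp, with no annotated protein-coding gene inside. On the minus strand of chromosome I, lbp-6 (WBGene00002258) at I:6728296-6729376 and lbp-5 (WBGene00002257) at I:6731267-6732276 flank ant-1.2, a gene for a mitochondrial adenine nucleotide carrier. On the plus strand of chromosome V, lbp-7 (WBGene00002259) at V:13879552-13880213 and lbp-8 (WBGene00002260) at V:13890773-13891364 are 10559 bp apart, with other genes between them. The remaining members stand alone on chromosome V, lbp-4 (WBGene00002256) at V:7820578-7821477 and lbp-9 (WBGene00021486) at V:2068449-2069142, both on the plus strand.

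The annotated proteins were of similar length. LBP-1, LBP-2 and LBP-3 have 159, 161 and 165 residues, LBP-9 has 152 and LBP-4 has 145. LBP-5 to LBP-8 are the shortest, at 135 to 137 residues. Exons of lbp-6 overlap those of mec-6 on the other strand by 35 bp, and exons of lbp-9 overlap those of Y40B10A.9 on the other strand by 5 bp. The library kit was strand-specific, but the strand setting used in counting and the treatment of reads that match several genes are not given in the sources used here, so reads shared between paralogues or across these overlaps could not be told apart.

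Depth was similar between libraries apart from the UA library of batch 5. Total counts were 12485842 to 24872334 per UA library (median 21341483), 22148505 to 24018538 per DMSO library (median 22755677) and 20644549 to 27474535 per untreated library (median 22892455). Batch 5 gave the UA library with the fewest reads, 12485842. Of 40 markers of tissues and moulting, 39 were found in the table and all 39 passed the filter, so intestine, hypodermis, muscle, neurons, germline and pharynx were all represented in these whole animals.

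Levels are given as CPM, the counts scaled to library size with edgeR's TMM factors, for comparisons of 1 gene across libraries. To compare members with each other they were expressed as FPKM, TMM-scaled CPM divided by exon length in kb. The family spanned a wide range of levels. lbp-6 was the most abundant at 1249.9 ± 132 FPKM (SD, n = 15 libraries of the 3 groups), which was 288 times the mean of lbp-8, the least abundant at 4.34 ± 1.29 FPKM. lbp-9 (451 ± 37.4 FPKM) and lbp-2 (371 ± 14.3 FPKM) came next and overlapped in range over all libraries. Within each library lbp-9 was the higher, for example at 364 against 347 FPKM in the UA library of batch 5. lbp-3 followed at 122 ± 6.10 FPKM and overlapped no other member.

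The next 4 members had means close to each other, and their order within single libraries was not tested. lbp-7 averaged 83.1 ± 11.2 FPKM, lbp-5 76.8 ± 6.86 FPKM, lbp-4 76.7 ± 9.21 FPKM and lbp-1 67.3 ± 5.57 FPKM (SD, n = 15 each), and each overlapped the next in range. All values of lbp-8, which lay between 2.46 and 6.24 FPKM, were below those of every other member. lbp-6 alone made up 45.9% to 51.9% of the summed FPKM of the 9 genes in UA libraries, 45.4% to 52.3% in DMSO libraries and 46.4% to 53.96% in untreated libraries.

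**Figure D1:**
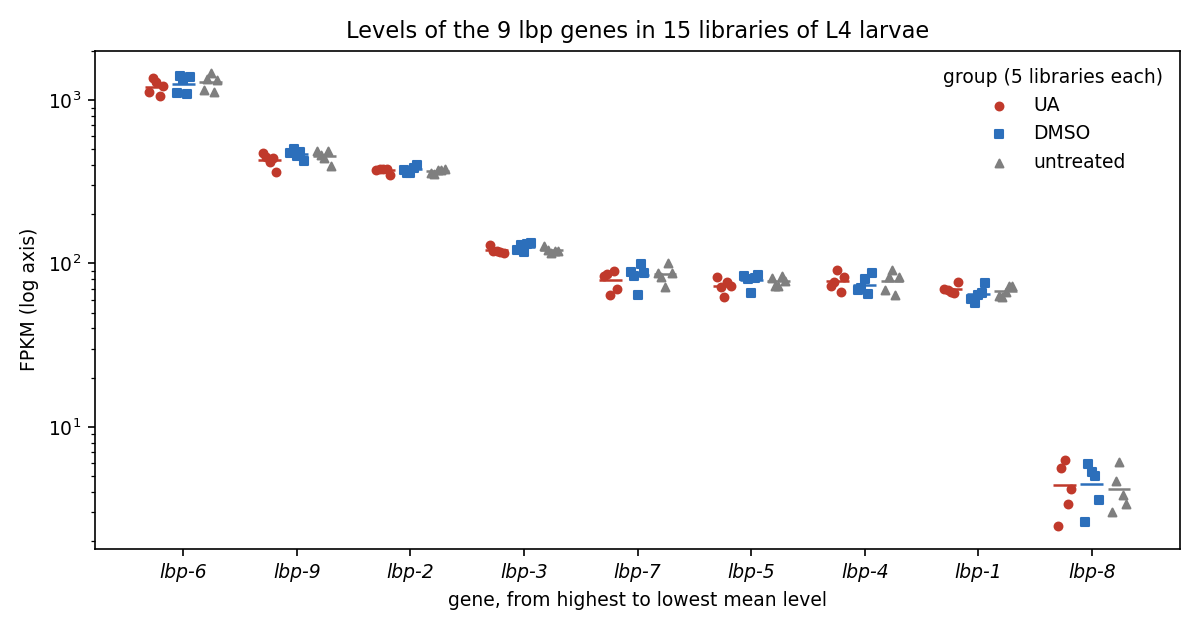
Level of each lbp gene in FPKM (log axis) in the 15 libraries, with UA, DMSO and untreated libraries side by side and 1 point per library. lbp-6 lies highest at a mean of 1249.9 FPKM and lbp-8 lowest at 4.34 FPKM, and the 3 groups overlap for every gene.

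The members also differed in how steady they were. Over the 15 libraries the coefficient of variation was lowest for lbp-2 (3.86%) and lbp-3 (4.99%), both of the tandem on chromosome X. The other gene of that tandem, lbp-1, had 8.27%, close to the 8.30% of lbp-9. The coefficient was highest for lbp-8 (29.8%). Counting error bears most on lbp-8, which had 28 to 74 reads per library. Its lowest count, 28 reads in the UA library of batch 5, has an exact Poisson 95% interval of 18.6 to 40.5 reads, which covers counting error only.

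The comparison of UA with DMSO asks what UA does beyond its solvent. None of the 9 lbp genes was called by edgeR's quasi-likelihood test at a Benjamini-Hochberg adjusted p under 0.02, where 38 of 14037 tested genes (0.271%) were called. At that background a list of 9 genes holding no call is no result about the family. The members' log2 fold changes lay between -0.12 (lbp-9) and 0.11 (lbp-1), with 2 positive and 7 negative and a median of -0.06, beside a median of -0.001 over all tested genes. The ranges of the UA and the DMSO libraries overlapped for all 9 members, and failed to overlap for 70 of all tested genes (0.499%). An unadjusted p under 0.05 was found for 3 members, lbp-1, lbp-5 and lbp-9, and for 1967 of all tested genes (14.01%). DESeq2 also called 0 of 9.

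lbp-9 had the smallest unadjusted p of the family (0.00347 by edgeR). It stood at 268, 254, 236, 250.5 and 205 CPM in the UA libraries of batches 1 to 5, against 266, 282, 255, 273 and 240.3 CPM in the DMSO libraries. The UA library was the lower of the pair in 4 of 5 batches, but the groups overlapped. The log2 fold change was -0.12 (SE 0.036, 95% interval -0.19 to -0.04), with an adjusted p of 0.142 in edgeR. With each batch or library left out in turn it ran from -0.15 to -0.09, with adjusted p from 0.0889 to 0.417. The written design had named another dispersion estimate for the edgeR fit, tagwise dispersions. With tagwise dispersions the log2 fold change of lbp-9 was also -0.12. Its adjusted p was then 0.0458 by edgeR, lower than in the fit used here but still above the threshold for a call.

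lbp-5, the member tied to fat storage, was lower with UA in each of the 5 batches without reaching the threshold. It was the only member with the same direction in every batch, which 1543 of all tested genes (10.99%) had. It stood at 39.6, 34.5, 29.9, 37.2 and 34.8 CPM in the UA libraries of batches 1 to 5, against 40.4, 38.8, 31.9, 39.0 and 40.6 CPM in the DMSO libraries. The low values of both groups came from batch 3, and the groups overlapped. The log2 fold change was -0.11 (SE 0.045, 95% interval -0.21 to -0.02, adjusted p = 0.267 by edgeR).

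lbp-1, of the secreted group, was the member with the most positive value. It stood at 38.9, 38.0, 37.05, 36.3 and 42.9 CPM in the UA libraries of batches 1 to 5, against 33.7, 32.0, 35.4, 36.7 and 41.9 CPM in the DMSO libraries. UA was the higher in 4 of 5 batches and the ranges overlapped widely. The log2 fold change was 0.11 (SE 0.048, 95% interval 0.007 to 0.21, adjusted p = 0.327 by edgeR).

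The other secreted members differed little between UA and DMSO. lbp-3, the intestinal carrier, averaged 74.9 ± 3.17 CPM in UA libraries and 78.9 ± 4.50 CPM in DMSO libraries (SD, n = 5 each), and lbp-2 averaged 282 ± 10.6 CPM in UA libraries and 285 ± 14.2 CPM in DMSO libraries. Their log2 fold changes were -0.07 (95% interval -0.16 to 0.01) for lbp-3 and -0.02 (95% interval -0.10 to 0.07) for lbp-2. lbp-4 averaged 46.3 ± 5.51 CPM in UA libraries and 44.0 ± 5.32 CPM in DMSO libraries, a log2 fold change of 0.07 (95% interval -0.02 to 0.17).

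Among the short members, lbp-6 averaged 636 ± 63.8 CPM in UA libraries and 664 ± 80.8 CPM in DMSO libraries (SD, n = 5 each), a log2 fold change of -0.06 (95% interval -0.14 to 0.02). lbp-7 averaged 40.8 ± 5.84 CPM in UA libraries and 43.7 ± 6.61 CPM in DMSO libraries, a log2 fold change of -0.09 (95% interval -0.19 to 0.01). The value of lbp-7 moved to -0.04 without the UA library of batch 5, the library with the fewest reads. lbp-8, the lysosomal carrier, averaged 2.31 ± 0.823 CPM in UA libraries and 2.36 ± 0.717 CPM in DMSO libraries. Its log2 fold change of -0.06 had a 95% interval of -0.36 to 0.24, the widest of the family, so differences within it were not excluded. For the other 8 members the 95% intervals of the UA to DMSO ratio lay between 0.865 and 1.15, each taken on its own.

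**Figure D2:**
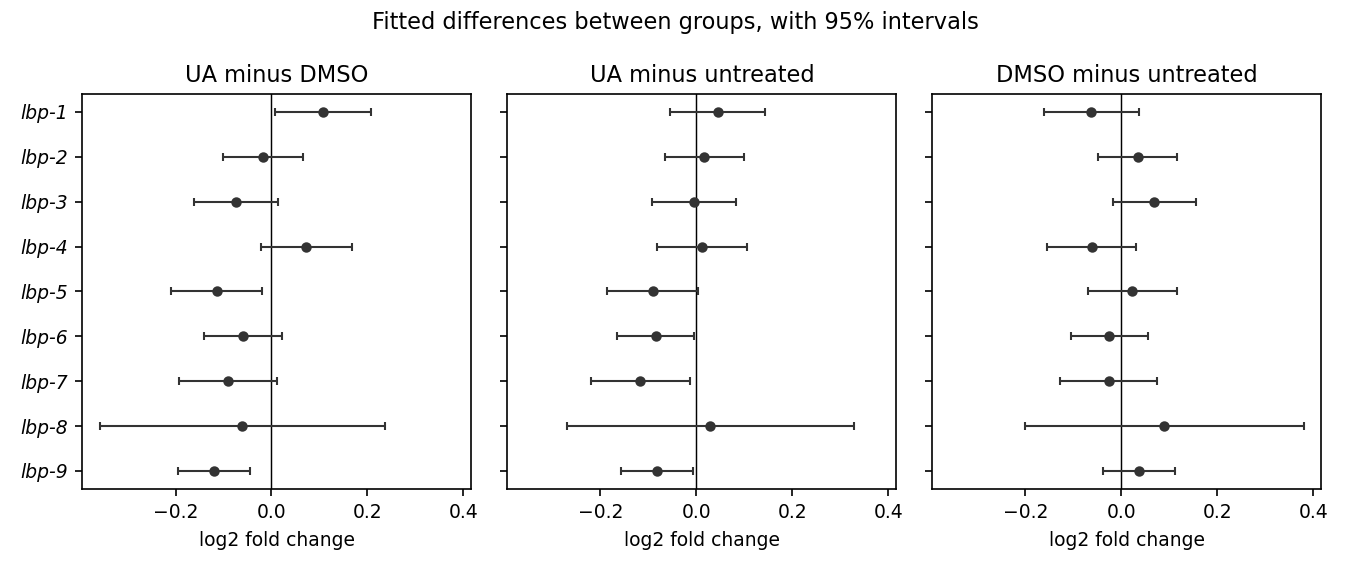
Log2 fold change of each lbp gene (x axis) with its 95% interval as a bar, for UA over DMSO, UA over untreated and DMSO over untreated. The points lie between -0.12 and 0.11, and the widest bars are those of lbp-8, from -0.36 to 0.24 for UA over DMSO.

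UA was also compared with untreated larvae, which adds the effect of the solvent. None of the 9 members was called, where 147 of 14037 tested genes (1.05%) were called. The members' log2 fold changes lay between -0.12 (lbp-7) and 0.04 (lbp-1), with a median of -0.005, beside 0.004 over all tested genes. An unadjusted p under 0.05 was found for 3 members, lbp-6, lbp-7 and lbp-9, beside 1733 of all tested genes (12.3%), and DESeq2 called 0 of 9. The ranges of the UA and the untreated libraries overlapped for all 9 members, and failed to overlap for 0.741% of all tested genes, so neither count of 0 sets the family apart.

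lbp-9 was again lower in UA libraries, in 5 of 5 batches, against 276, 261, 251, 273 and 223 CPM in the untreated libraries of batches 1 to 5. Such a direction in every batch was found for 1 of 9 members and for 1569 of all tested genes (11.18%). The log2 fold change was -0.08 (SE 0.036, adjusted p = 0.332 by edgeR). The comparisons with DMSO and with untreated larvae share the UA libraries. lbp-7 had a log2 fold change of -0.12 (SE 0.049, adjusted p = 0.316) and lbp-6 of -0.08 (SE 0.038, adjusted p = 0.367), each lower with UA in 4 of 5 batches.

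DMSO was compared with untreated larvae to measure the solvent alone. Of the 9 members 0 were called and 0 had an unadjusted p under 0.05 by edgeR, and DESeq2 called 0. Over all tested genes 17 of 14037 (0.121%) were called and 1111 (7.91%) had such a p. The members' log2 fold changes lay between -0.06 (lbp-1) and 0.09 (lbp-8), with a median of 0.02, beside 0.006 over all tested genes. The ranges of the DMSO and the untreated libraries overlapped for all 9 members, and failed to overlap for 22 of all tested genes (0.157%). No member had the same direction in all 5 batches, which 1317 of all tested genes (9.38%) had.

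More lbp genes differed between batches than between groups. In an F test of the batch terms in the same edgeR fit, 7 of the 9 lbp genes were called at an adjusted p under 0.02, where 7441 of 14037 tested genes (53.0%) were called. Most genes moved between batches, so the members' count is read against that share and is not particular to the family. The median distance between the highest and the lowest batch was 0.30 on the log2 scale for the members and 0.36 for all tested genes. lbp-2 (0.06, adjusted p = 0.794) and lbp-3 (0.11, adjusted p = 0.439) were not called. Over the 10 pairs of batches, adjusted over genes and pairs together, 36290 of 140370 tests (25.9%) passed the threshold.

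lbp-8 had the largest distance between batches among the members. It stood at 1.30, 2.96, 3.30, 1.78 and 2.20 CPM in the UA libraries of batches 1 to 5, at 1.37, 3.12, 2.79, 2.64 and 1.87 CPM in the DMSO libraries, and at 1.58, 2.46, 3.21, 2.02 and 1.77 CPM in the untreated libraries. Batch 1 was the lowest in each of the 3 groups, and the highest library was that of batch 2 or batch 3. The mean of batch 3 was 2.19 times that of batch 1, a distance of 1.12 on the log2 scale (adjusted p = 0.000182), and 3 of 10 pairs of batches differed. Without batch 1 the distance was 0.70 (adjusted p = 0.00969).

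lbp-7 followed at 0.54 on the log2 scale (adjusted p = 1.11e-05). It stood at 43.6, 44.7, 33.3, 46.6 and 35.96 CPM in the UA libraries of batches 1 to 5, at 45.9, 43.3, 33.1, 51.2 and 44.9 CPM in the DMSO libraries, and at 45.2, 42.7, 36.8, 52.0 and 45.3 CPM in the untreated libraries. Batch 4 was the highest and batch 3 the lowest in each of the 3 groups. Of 10 pairs of batches 5 differed. Without batch 3 the distance was 0.23 with an adjusted p of 0.0233, so the call of lbp-7 was lost.

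lbp-4 ran the other way round. It stood at 43.3, 45.3, 54.2, 39.8 and 48.9 CPM in the UA libraries of batches 1 to 5, at 41.0, 42.0, 47.4, 38.3 and 51.5 CPM in the DMSO libraries, and at 40.9, 48.7, 54.1, 38.2 and 48.9 CPM in the untreated libraries. Batch 4 was the lowest in each group, and batches 3 and 5 had the highest means. The distance was 0.42 on the log2 scale (adjusted p = 1.33e-05), and 6 of 10 pairs of batches differed.

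lbp-6, the most abundant member, split the batches in a similar way. Its mean over the 3 libraries of a batch was 722 CPM in batch 2, 713 CPM in batch 3 and 690 CPM in batch 5, but 593 CPM in batch 1 and 576 CPM in batch 4. The distance was 0.33 on the log2 scale (adjusted p = 1.07e-05), and 6 of 10 pairs of batches differed.

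The calls of lbp-5, lbp-9 and lbp-1, like that of lbp-7, were lost when certain batches were left out. lbp-5 averaged 39.8 CPM in batch 1 and 32.2 CPM in batch 3, a distance of 0.30 (adjusted p = 0.00134). Its call was lost without batch 3 (0.12, adjusted p = 0.286), without the UA library of that batch (0.26, adjusted p = 0.0255) and without its DMSO library (0.24, adjusted p = 0.0318). lbp-9 averaged 270.2 CPM in batch 1 and 223 CPM in batch 5, a distance of 0.28 (adjusted p = 0.000179), and was not called without batch 5 (0.105, adjusted p = 0.138).

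lbp-1 averaged 41.6 CPM in batch 5 and 34.8 CPM in batch 2, a distance of 0.26 (adjusted p = 0.0103). With each batch or library left out in turn, its call was lost in 6 of 20 fits. These were the fits without batch 5 (0.10, adjusted p = 0.412), without its DMSO library (0.22, adjusted p = 0.0873) or its UA library (0.26, adjusted p = 0.034), and without batch 2 (0.22, adjusted p = 0.0243), its DMSO library (0.22, adjusted p = 0.0292) or its untreated library (0.24, adjusted p = 0.0261).

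**Figure D3:**
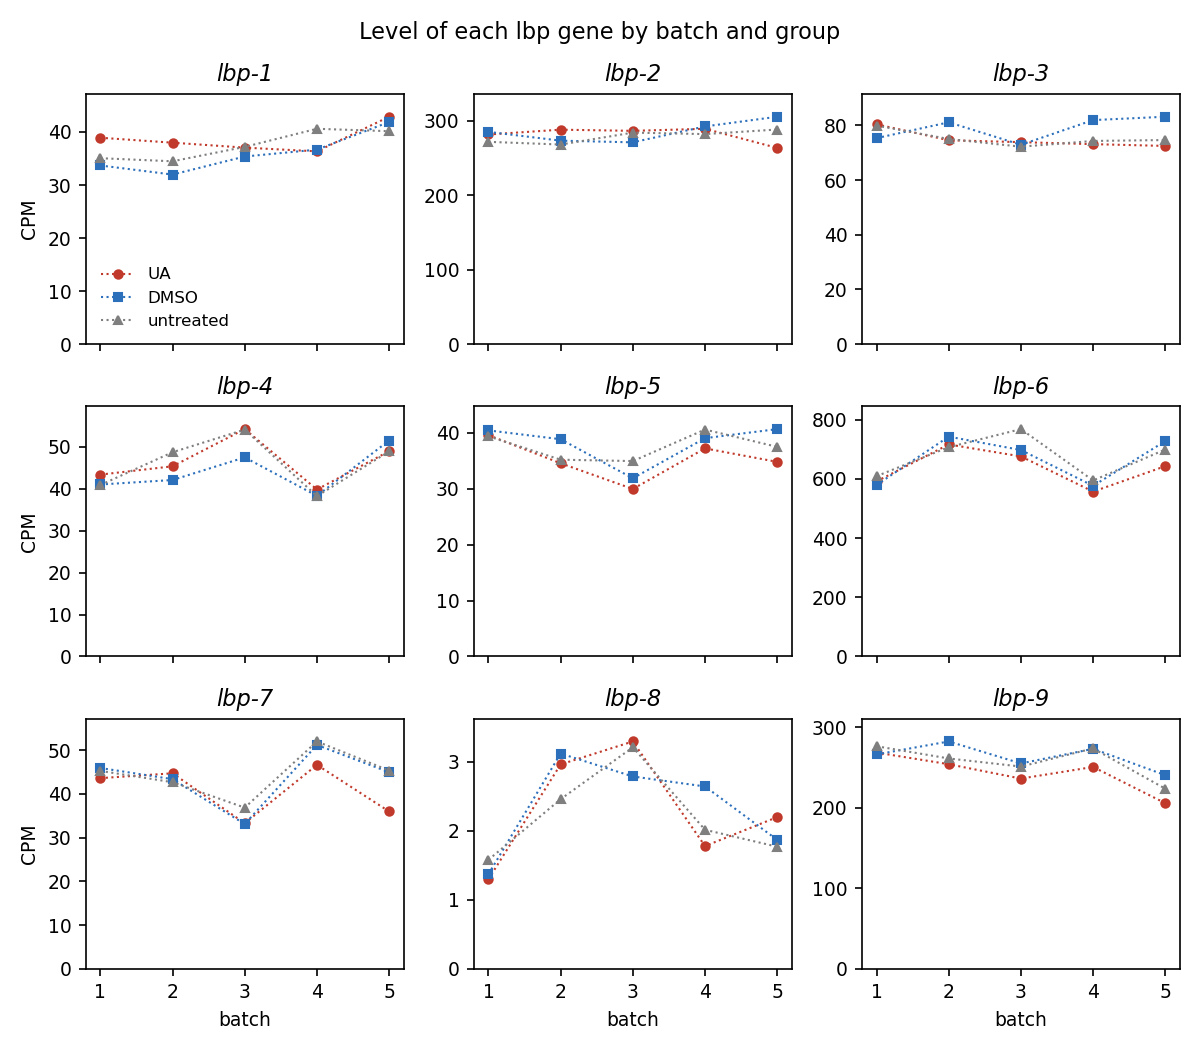
CPM of each lbp gene (y axis from 0) in batches 1 to 5 (x axis), with a line for the UA, the DMSO and the untreated libraries. In every group lbp-8 is lowest in batch 1 and ranges from a mean of 1.42 CPM in batch 1 to 3.10 CPM in batch 3.

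Marker sums also differed between the batches. The 8 moulting genes, which are expressed as larvae build and shed a cuticle, summed to 3283, 4071, 5155, 3066 and 4522 CPM in batches 1 to 5 (means over the 3 groups), with a range of 2937 to 5200.5 CPM over libraries. Batches 2, 3 and 5 were thus high in moulting genes and in lbp-6, and batches 1 and 4 low in both. The 5 germline genes summed to 1436, 1425, 1330.2, 1445 and 1173 CPM and the 5 hypodermis genes to 2306, 2699, 2150.1, 2372 and 1839 CPM, both lowest in batch 5. The 6 intestine genes (5410, 5582, 5543, 5338 and 6186 CPM) were highest in batch 5. So were the 5 neuron genes (168, 168, 172, 164 and 189 CPM). The mean sum of the 5 pharynx genes (1007, 1052, 1021, 918 and 1219 CPM) was also highest in batch 5. In the DMSO libraries alone the pharynx sum was 977 CPM in batch 5, below the 1044 CPM of batch 3. The 5 muscle genes (14236, 15363, 13709, 13125 and 13252 CPM) were highest in batch 2. None of the 39 markers was at 0. The part of moulting stage or tissue makeup in the batch differences of the lbp genes was not tested.

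Within the family, the log2 CPM of members over the 15 libraries gave Pearson correlations from -0.75 to 0.84 over 36 pairs. The libraries share batches, so these values are a description. lbp-5 and lbp-7 ran most alike (0.84), followed by lbp-4 and lbp-6 (0.75), and lbp-4 and lbp-7 ran most opposed (-0.75). Tandem neighbours were not close: lbp-1 and lbp-2 gave 0.28, lbp-1 and lbp-3 gave -0.11, and lbp-2 and lbp-3 gave 0.33.

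Outside the family, the 2 genes with the highest Pearson correlation to each member were picked from all tested genes. As maxima over libraries that share batches, these values are also a description only. For lbp-6 they were ife-2, an isoform of the cap-binding translation factor eIF4E, and rpl-14, a protein of the large ribosomal subunit (both 0.96). For lbp-8 they were nhr-114, a nuclear hormone receptor (0.89), and F35E12.5 (0.87). The nearest genes of lbp-9 were C54E4.2 and Y39G8C.2 (both 0.96), of lbp-1 F55G1.15 (0.95) and lgc-32 (0.93), of lbp-4 Y54F10AM.8 (0.94) and C46F2.1 (0.93), and of lbp-7 K02E2.8 (0.94) and C18H7.11 (0.91). For lbp-5 they were tag-278 and R13H4.8 (both 0.88). For the steady members the values were lower, with T13C5.6 (0.83) and scrm-2 (0.78) for lbp-3 and cccp-1 and Y71H2AM.14 (both 0.81) for lbp-2. By rank (Spearman) the lbp-3 values were only 0.63 for T13C5.6 and 0.55 for scrm-2.

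Other genes of lipid carriage and of the pathways that lbp proteins feed were counted in the same fit. Of 8 partners of LIPL-4 and NHR-49 signalling, among them lipl-4, nhr-49 and nhr-80, 0 were called in any of the 3 comparisons. The same held for 7 tested acyl-CoA-binding genes and for 6 other lipid carriers and lipoprotein assembly genes. With 0.271% of all tested genes called for UA over DMSO, 1.05% for UA over untreated and 0.121% for DMSO over untreated, lists of this size would hold few calls or none. Of 7 tested far genes, which encode secreted fatty acid- and retinol-binding proteins of nematodes, far-3 was called. It averaged 30.7 ± 8.43 CPM in UA libraries, 39.2 ± 9.15 CPM in DMSO libraries and 26.6 ± 7.82 CPM in untreated libraries (SD, n = 5 each). Its log2 fold change was -0.36 for UA over DMSO (SE 0.063, adjusted p = 0.00736 by edgeR) and 0.58 for DMSO over untreated (SE 0.062, adjusted p = 4.66e-05). Both calls share the DMSO libraries. For UA over untreated far-3 was not called, at a log2 fold change of 0.22 (SE 0.065, adjusted p = 0.119 by edgeR).

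Of 10 fat metabolism genes that depend on NHR-49, 0 were called between UA and DMSO, 2 fell in UA against untreated larvae (1.05% of all tested genes called) and 1 fell in DMSO against untreated larvae (0.121% of all tested genes called). fat-7, a delta-9 desaturase of stearic acid, averaged 108 ± 17.9 CPM in UA libraries, 114 ± 14.6 CPM in DMSO libraries and 143 ± 17.9 CPM in untreated libraries. Its log2 fold change was -0.40 for UA over untreated (SE 0.050, adjusted p = 0.000108 by edgeR) and -0.33 for DMSO over untreated (SE 0.050, adjusted p = 0.00401). fat-5, a delta-9 desaturase of palmitic acid, averaged 37.5 ± 14.3 CPM in UA libraries and 51.9 ± 20.5 CPM in untreated libraries. The DMSO libraries averaged 45.4 ± 23.1 CPM. For UA over untreated the log2 fold change of fat-5 was -0.46 (SE 0.069, adjusted p = 0.00108 by edgeR). It was -0.23 for DMSO over untreated (SE 0.067, adjusted p = 0.326) and -0.23 for UA over DMSO (SE 0.070, adjusted p = 0.147), neither called. Both comparisons with untreated larvae share the untreated libraries.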

How the data were processed

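RNA was sequenced from whole N2 larvae (15 libraries, 3 groups of 5). The authors aligned single-end reads to WBcel235 with STAR 2.5.2b, marked duplicates, counted exonic reads per gene with featureCounts 1.5.2 (versions per the submitters' processing notes) and deposited raw counts, which are not normalized. Whether marked duplicates were counted is not given in the sources used here. Groups and batches were read from the sample labels.

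Counts were fitted in R 4.3.3 with edgeR 4.0.16 (TMM factors, quasi-likelihood test, group and batch as terms, all 15 libraries). The filter kept the 14037 genes with 10 or more counts in some library and 1 or more CPM in 3 or more libraries. The threshold for a call was 0.02 on the p-value after Benjamini-Hochberg adjustment. The written design named tagwise dispersions. The fit used edgeR's own default for this test, the trended dispersions, and that choice was made after the output of both had been seen. With tagwise dispersions passed to the fit, 184 genes were called for UA over DMSO, 329 for UA over untreated and 71 for DMSO over untreated, and the lbp genes called were 0, 0 and 0. The fit was tested on simulated counts.

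The labels name the replicate number as the batch, and the deviations of same-batch libraries from the group means correlated at 0.41 to 0.84 across genes, so the batch was a block. FPKM was computed here from TMM-scaled CPM and exon lengths of the WBcel235 annotation, in which 20194 of 20541 gene identifiers were found. Log2 CPM for correlations used a prior count of 2. The text names all 9 members, list genes called between groups, and the 2 genes most correlated with each member. Members and lists were chosen with earlier results of these data known. Of 41 list genes, 38 were tested. Alternatives were RLE factors, DESeq2 1.42.0, the edgeR 4 method, other filters, only the groups compared, no batch block, a threshold of 0.05, and leaving out each batch and library. A planned motif search was not run, and promoter and protein sequences were not analysed here. Plots used matplotlib 3.10.9 (Python 3.11.15). The study's methods call the replicates independent but do not describe separate cultures. The p-values therefore measure the spread left between these libraries after the group and batch terms.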

Additional observations from a re-analysis of the deposited data

Results flagged for a closer look

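Among the 27 groups of 5 libraries (9 lbp genes in 3 groups), 2 held a library far from the other 4, where chance gives about 1.35. The UA library of batch 1 had 80.38 CPM of lbp-3, and the other UA libraries had 72.5 to 74.6 CPM. The DMSO library of batch 3 had 31.85 CPM of lbp-5, and the other DMSO libraries had 38.8 to 40.6 CPM. Batch 3 was also the lowest batch for lbp-5 in the UA and the untreated libraries, at 29.9 and 34.9 CPM.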

How the results depend on the processing

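The number of lbp genes called was 0 for UA over DMSO, UA over untreated and DMSO over untreated in every alternative run, with no batch block included (0, 0 and 0 without the replicate block). Between batches it was 7, and 5 to 7 when a batch or a library was left out, where 5387 to 7829 of all tested genes were called, against 7441 in the full fit. It was 5 without batch 3 and without batch 5, where all genes called numbered 6975 and 5387. All 306 values from the other alternatives, of which the fit to only the groups compared omits the third group, kept their direction and their side of the threshold. Leaving out a batch or a library turned the direction of 8 fold changes, none of them called: for UA over DMSO lbp-2 ran from -0.043 to 0.030 and lbp-8 from -0.157 to 0.073, for UA over untreated lbp-2 from -0.010 to 0.055, lbp-3 from -0.029 to 0.013, lbp-4 from -0.010 to 0.039 and lbp-8 from -0.043 to 0.124, and for DMSO over untreated lbp-5 from -0.0075 to 0.056 and lbp-8 from -0.019 to 0.179. The cause was not tested.

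The counts of 0 among 9 members say little of stability at these backgrounds. Over all genes, the full fit called 38 for UA over DMSO, 147 for UA over untreated and 17 for DMSO over untreated. Without the batch block the calls were 10, 12 and 0. With tagwise dispersions, which the written design had named, the calls were 184, 329 and 71. The trended dispersions of the full fit were chosen after both outputs had been seen. For UA over DMSO the calls were 71 with no filter, 61 with DESeq2 and 77 at 0.05. For DMSO over untreated they were 35 with no filter, 26 with DESeq2, 30 at 0.05 and 73 with only the groups compared, which gave 76 for UA over untreated. Leaving out a batch or a library gave 17 to 162 for UA over DMSO, 71 to 396 for UA over untreated and 9 to 31 for DMSO over untreated, and the highest counts of the UA comparisons came without the UA library of batch 4. lbp-8, at 28 to 74 reads per library, is limited by depth.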

Other observations

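In the F test of the batch terms, 7 of 7 tested far genes, 7 of 10 NHR-49-dependent fat metabolism genes, 3 of 8 partners of LIPL-4 and NHR-49 signalling, 3 of 6 other lipid carriers and 2 of 7 acyl-CoA-binding genes were called, beside 53.0% of all tested genes. The median distance between the highest and the lowest batch was 0.63 on the log2 scale for the NHR-49-dependent genes and 0.23 to 0.28 for the other 4 lists, beside 0.36 over all tested genes.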
